A study of Mus musculus with 12 samples.

Results

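The 10 genes described here are textbook marks of T cells (Cd3d, Cd3e, Cd3g, Thy1 and Cd27) or of leukocytes more broadly (Gimap6, Ptprc, Coro1a, Cytip and Plac8). They were taken by gene symbol, with every probe of each symbol in the deposited raw table. They are 10 of 19057 named genes on the array, and their 20 probes are 20 of 45281. They are set beside the B cell genes of the same islets.

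Pancreatic islet RNA was profiled on 12 Illumina beadchips, 3 for each of 4 groups. The mice were male, of strain C57Bl/6Hsd, and 10 months old. SHPKO mice lack SHP (small heterodimer partner, encoded by Nr0b2), an orphan nuclear receptor that represses other nuclear receptors, and WT mice carry it. The groups were SHPKO on western diet, WT on western diet, SHPKO on chow and WT on chow. Each diet was given for 6 months from 4 months of age. RNA of 5 to 9 mice was pooled per group and arrayed in triplicate. Whether the triplicates of a group came from a single pool is not made explicit, so they were read as technical replicates, and the p-values then reflect variation among arrays, not among mice. Collagenase-isolated islets carry some exocrine, vascular and blood cells, and in such bulk RNA fewer cells of a type and less RNA per cell cannot be told apart.

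The CD3 chains (delta, epsilon and gamma) sit beside the antigen-binding chains of the T cell receptor, carry its signal into the cell, and are kept almost entirely to T cells. CD4 and CD8 mark the helper and cytotoxic branches. CD45, coronin 1A, CYTIP and PLAC8 are shared by B cells, T cells and other leukocytes, so a rise in these genes alone does not name a lineage.

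The 3 CD3 genes are neighbours on mouse chromosome 9, and their promoters are shown because all of their probes were brightest in the same group. RefSeq promoters (build GRCm38.p6, 250 bases before to 50 after the start, read 5′ to 3′ on the gene's own strand) were found for 9 of the 10 genes. Thy1 is named only. Capitals mark matches, on either strand, to AGGAAG (ETS factors), TGTGGT (RUNX), CAGGTG (a form of E-box), CTTTGA (TCF and LEF) and TATAAA (the TATA box). These letters lie in 35.4%, 16.8%, 20.2%, 16% and 13.6% of 32851 promoters of the same length, in that order of motifs, so a single match is common. Cd3g lies on the minus strand at chr9:44980382-44980681, Cd3d on the plus strand at chr9:44981536-44981835, and Cd3e on the minus strand at chr9:45009562-45009861. Cytip, on the minus strand at chr2:58160073-58160372, is shown beside them as a leukocyte gene whose genotype difference depended on diet.
Cd3g: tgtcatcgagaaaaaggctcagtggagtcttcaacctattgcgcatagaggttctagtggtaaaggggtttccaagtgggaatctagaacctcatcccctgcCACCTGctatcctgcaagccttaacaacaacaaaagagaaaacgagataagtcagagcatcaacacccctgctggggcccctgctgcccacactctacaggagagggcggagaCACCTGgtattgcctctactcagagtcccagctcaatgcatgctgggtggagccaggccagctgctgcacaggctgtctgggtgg
Cd3d: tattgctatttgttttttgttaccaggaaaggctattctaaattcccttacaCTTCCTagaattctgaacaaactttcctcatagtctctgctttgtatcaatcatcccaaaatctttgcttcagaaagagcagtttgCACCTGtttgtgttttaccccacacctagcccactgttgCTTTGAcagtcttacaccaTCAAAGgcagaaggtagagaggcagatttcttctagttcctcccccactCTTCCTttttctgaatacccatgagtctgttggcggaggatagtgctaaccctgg
Cd3e: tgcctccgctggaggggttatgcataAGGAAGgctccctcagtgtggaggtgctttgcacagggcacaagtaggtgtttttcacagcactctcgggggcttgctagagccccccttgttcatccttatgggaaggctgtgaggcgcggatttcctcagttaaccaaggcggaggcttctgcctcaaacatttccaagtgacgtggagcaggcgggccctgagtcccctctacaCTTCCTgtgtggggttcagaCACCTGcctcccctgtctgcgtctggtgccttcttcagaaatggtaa
Cytip: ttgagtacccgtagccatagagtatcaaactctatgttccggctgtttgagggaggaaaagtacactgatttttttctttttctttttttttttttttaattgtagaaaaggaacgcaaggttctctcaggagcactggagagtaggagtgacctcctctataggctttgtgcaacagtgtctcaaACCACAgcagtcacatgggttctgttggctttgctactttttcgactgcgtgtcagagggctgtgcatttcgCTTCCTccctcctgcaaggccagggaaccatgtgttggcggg
The E-box letters occurred 2 times in Cd3g, 1 time in Cd3d and 1 time in Cd3e. Of the 12 promoters listed for the 9 genes, these 3 held that match. Cd3d and Cd3e held 2 ETS matches each, and Cd3d held 2 TCF and LEF matches. Cytip held 1 ETS and 1 RUNX match. No window of the 3 CD3 genes held the TATA letters or the RUNX letters. A match is a description of the letters, not of binding.

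The labelled tissue was checked first. The 11 islet genes listed (Ins2 and Gcg among them) summed to 132850 to 138682 normalized units in SHPKO islets and 140488 to 141706 in WT islets on western diet, and to 133870 to 140726 in SHPKO islets and 124629 to 129060 in WT islets on chow. Nr0b2 was not detected on any array, so its probe does not check the genotype labels. Between 13821 and 16101 probes were detected per array. Of all named genes, 46.3% to 47.5% were detected per array in SHPKO and 45.5% to 46.7% in WT on western diet, and 45.9% to 48.5% in SHPKO and 44.5% to 47.4% in WT on chow, so the groups were alike in overall detection. Another cell type did differ. The summed signal of 13 acinar genes was 18072 to 21510 in SHPKO and 159259 to 178097 in WT on western diet, and 15501 to 19427 in SHPKO and 194161 to 205997 in WT on chow. Its part in the results below was not tested, and it was low in SHPKO islets on both diets.

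Levels below are log2 values after background correction and quantile normalization, and a probe counts as detected where its deposited detection p-value is below 0.01. The dimmest detected probe of an array read 5.07 to 5.48, so values under that lie in the background. A probe entered the test where it was detected on all 3 arrays of at least 1 group. A gene passed the threshold at a Benjamini-Hochberg adjusted p below 0.05 in limma and a change of at least 1.5-fold. Where a gene was undetected on all 3 arrays of a group, the fold is a lower bound.

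**Figure D1:**
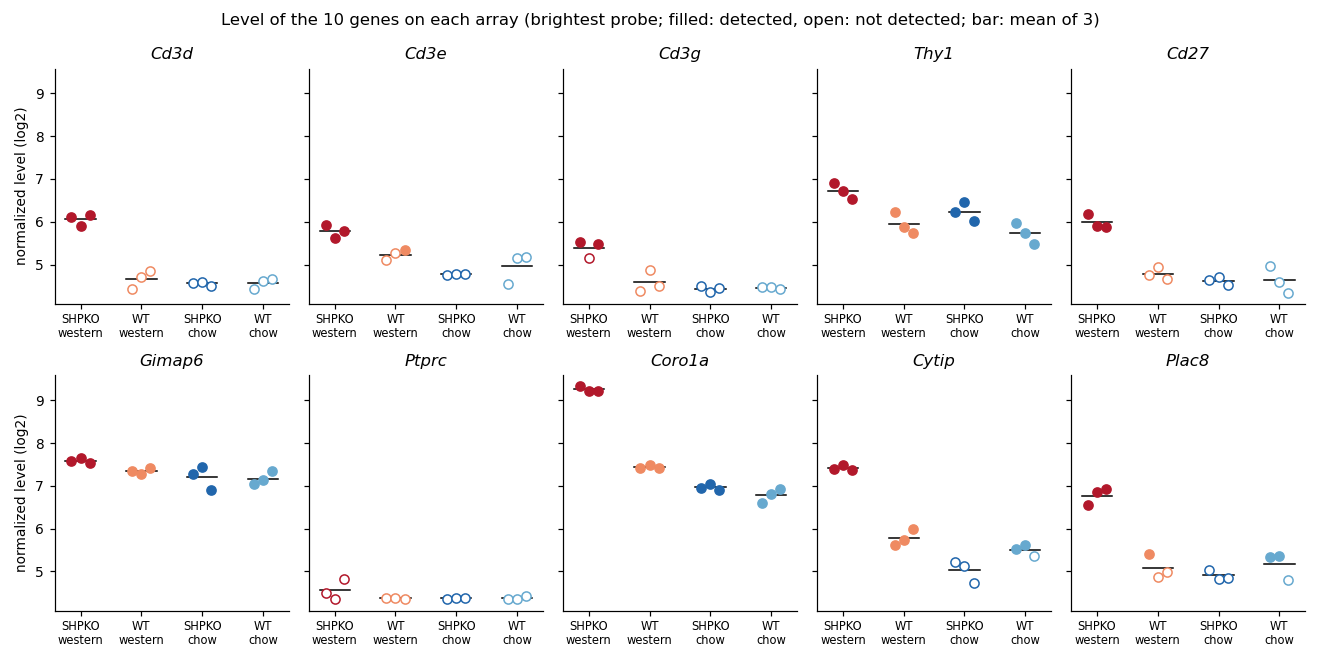
Normalized log2 level of the brightest probe of each of the 10 genes on every array, by group, with filled points for detected arrays, open points for undetected ones and a bar at the mean of 3. Cd3d, Cd27, Plac8, Cytip and Coro1a stand higher in SHPKO islets on western diet than in the remaining 3 groups, Gimap6 varies little, and Ptprc stays in the background.

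Cd3d, the delta chain, was detected on the 3 arrays of SHPKO islets on western diet and on none of the other 9. It read 6.12, 5.89 and 6.16 in SHPKO and 4.42, 4.71 and 4.84 in WT on western diet, and 4.57, 4.59 and 4.50 in SHPKO and 4.42, 4.60 and 4.66 in WT on chow. The first group stood clear of the rest, and the other 3 overlapped each other within the background. On western diet Cd3d rose by 1.40 ± 0.12 in SHPKO over WT (log2 difference ± SE, limma adjusted p = 6.4e-06), which is at least 1.67-fold. On chow the difference was -0.01 ± 0.12 (adjusted p = 0.99). Within SHPKO islets it rose by 1.5 ± 0.12 on western diet over chow (adjusted p = 5.4e-06, at least 1.79-fold). Within WT islets the diets differed by 0.09 ± 0.12 (adjusted p = 0.73).

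Cd3e, the epsilon chain, had 2 probes that differed in size of effect. The brighter read 5.93, 5.62 and 5.78 in SHPKO and 5.10, 5.26 and 5.33 in WT on western diet, and 4.75, 4.78 and 4.77 in SHPKO and 4.56, 5.16 and 5.19 in WT on chow. The SHPKO arrays on western diet were the highest, and 1 of the 3 WT arrays on that diet was also detected. This probe gave 0.54 ± 0.15 for SHPKO against WT on western diet, which did not pass (adjusted p = 0.070), and -0.20 ± 0.15 on chow (adjusted p = 0.65). Within SHPKO islets it rose by 1.01 ± 0.15 on western diet over chow (adjusted p = 0.0014, at least 1.47-fold), though by 0.41 without background correction, below the minimum fold. The dimmer probe read 5.46, 5.23 and 5.64 in SHPKO and 4.40, 4.43 and 4.50 in WT on western diet, and 4.43, 4.36 and 4.33 in SHPKO and 4.55, 4.30 and 4.33 in WT on chow. It was detected in the first group alone, where the genotypes did not overlap. Its difference on western diet was 1.00 ± 0.11, past the threshold (adjusted p = 9.4e-05 over all probes kept), so the call for Cd3e rests on which probe stands for the gene.

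Cd3g, the gamma chain, missed the filter by 1 array. Its only probe read 5.52, 5.15 and 5.48 in SHPKO and 4.37, 4.88 and 4.50 in WT on western diet, and 4.50, 4.37 and 4.44 in SHPKO and 4.47, 4.48 and 4.43 in WT on chow. The detection p-values in the first group were 0.001, 0.014 and 0.002, and the group again did not overlap the others. In the fit without a filter, Cd3g rose by 0.80 ± 0.13 in SHPKO over WT on western diet (adjusted p = 0.0060) and by 0.95 ± 0.13 on western diet over chow in SHPKO (adjusted p = 0.0019). On chow it gave -0.02 ± 0.13 (adjusted p = 0.98). The probes of the 3 chains were thus highest on the same 3 arrays, at levels near the dimmest detected signal.

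Cd27, a costimulatory receptor of the TNF receptor family on T cells that is also found on some B, NK and plasma cells, followed the same order. It read 6.17, 5.91 and 5.88 in SHPKO and 4.75, 4.94 and 4.67 in WT on western diet, and 4.63, 4.71 and 4.53 in SHPKO and 4.96, 4.59 and 4.33 in WT on chow. Only the first group was detected. On western diet it rose by 1.20 ± 0.15 in SHPKO over WT (adjusted p = 2.2e-04, at least 1.59-fold), and in SHPKO by 1.36 ± 0.15 on western diet over chow (adjusted p = 7.8e-05, at least 1.70-fold). The values on chow between genotypes and in WT between diets were 0.00 ± 0.15 (adjusted p = 0.999) and 0.16 ± 0.15 (adjusted p = 0.61). The other 2 Cd27 probes were detected on no array, so the gene rests on 1 of 3 probes. Without background correction it was 0.50 higher in SHPKO over WT on western diet and 0.58 higher on western diet over chow in SHPKO, both below the minimum fold.

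Thy1, a surface glycoprotein of mouse T cells that neurons and fibroblasts also carry, was detected in every group. Its brighter probe read 6.91, 6.71 and 6.53 in SHPKO and 6.22, 5.87 and 5.73 in WT on western diet, and 6.22, 6.46 and 6.01 in SHPKO and 5.96, 5.73 and 5.49 in WT on chow. Each SHPKO group lay above the WT group of its diet without overlap. The difference was 0.77 ± 0.17 on western diet (adjusted p = 0.018) and 0.50 ± 0.17 on chow, which did not pass (adjusted p = 0.19). The western diet call was lost without WT replicate 2 (0.74, adjusted p = 0.073) or 3 (0.67, adjusted p = 0.087), without SHPKO replicate 1 (0.68, adjusted p = 0.087) or 2 (0.78, adjusted p = 0.061), and without background correction (0.43). Its interaction of 0.27 ± 0.24 did not pass (adjusted p = 0.76). The second Thy1 probe was detected on no array. A fibroblast marker was also higher on both diets: Dcn, which encodes the matrix proteoglycan decorin, rose in SHPKO over WT by 1.68 ± 0.24 on western diet (adjusted p = 9.4e-04) and by 1.55 ± 0.24 on chow (adjusted p = 0.0028), the 1 call among 5 fibroblast genes tested on each diet. Among all genes tested, 1.9% were higher on western diet and 0.845% on chow. The summed signal of 10 fibroblast genes was 1687 to 1828 in SHPKO and 1217 to 1435 in WT on western diet, and 1545 to 1768 in SHPKO and 1049 to 1277 in WT on chow. Col1a1, Col1a2, Col3a1, Lum and Pdgfra were detected on no array, and the part of fibroblasts in the Thy1 values was not tested.

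Coro1a, the actin-binding coronin of blood cells, rose in SHPKO over WT on western diet by 1.83 ± 0.10 or 3.55-fold (adjusted p = 4.3e-08). Its brightest probe read 9.33, 9.23 and 9.22 in SHPKO and 7.41, 7.48 and 7.41 in WT on western diet, and 6.95, 7.04 and 6.91 in SHPKO and 6.60, 6.82 and 6.92 in WT on chow. The western diet groups stood apart from each other and from both chow groups, which overlapped. The difference on chow was 0.19 ± 0.10 (adjusted p = 0.45). Western diet raised Coro1a over chow by 2.29 ± 0.10 in SHPKO islets (adjusted p = 1.8e-08) and by 0.65 ± 0.10 in WT islets (adjusted p = 0.0020), the single call of the 10 genes in WT. That call ended without WT chow replicate 1 (0.56) and without background correction (0.45), both short of the minimum fold. Of its other probes, the second gave 1.57 and the third 1.11 on western diet between genotypes, both past the threshold, and the fourth, which missed the filter, gave 0.45. Between diets in WT the second gave 0.16 (adjusted p = 0.47 over all probes kept) and the third 0.12 (adjusted p = 0.77). The fourth gave -0.16, so the WT call rests on the brightest probe.

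Cytip, which binds cytohesins and takes part in leukocyte adhesion, read 7.40, 7.49 and 7.36 in SHPKO and 5.62, 5.74 and 6.00 in WT on western diet, and 5.21, 5.14 and 4.73 in SHPKO and 5.52, 5.61 and 5.37 in WT on chow. It was detected on all western diet arrays, on 2 of 3 WT chow arrays and on 0 of 3 SHPKO chow arrays. On western diet Cytip rose by 1.63 ± 0.14 in SHPKO over WT (adjusted p = 5.2e-06). On chow SHPKO lay below WT with no overlap, a difference of -0.47 ± 0.14 that did not pass (adjusted p = 0.12). In SHPKO it rose by 2.39 ± 0.14 on western diet over chow (adjusted p = 2.3e-07, at least 4.58-fold), against 0.28 ± 0.14 in WT (adjusted p = 0.28).

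Plac8, a small cysteine-rich protein of lymphoid and myeloid cells that some epithelia also make, read 6.55, 6.85 and 6.92 in SHPKO and 5.40, 4.87 and 5.00 in WT on western diet, and 5.04, 4.83 and 4.85 in SHPKO and 5.34, 5.37 and 4.79 in WT on chow. SHPKO islets on western diet were clear of the rest, and the other 3 groups overlapped. Plac8 was detected on 1 of 3 WT western diet arrays and 2 of 3 WT chow arrays. It rose by 1.68 ± 0.18 in SHPKO over WT on western diet (adjusted p = 4.5e-05) and by 1.87 ± 0.18 in SHPKO on western diet over chow (adjusted p = 2.4e-05, at least 2.93-fold). On chow the genotypes differed by -0.26 ± 0.18 (adjusted p = 0.60).

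Gimap6, a GTPase of the immunity-associated family important for lymphocyte survival, was detected on all 12 arrays. It read 7.58, 7.66 and 7.53 in SHPKO and 7.36, 7.27 and 7.42 in WT on western diet, and 7.27, 7.44 and 6.89 in SHPKO and 7.03, 7.13 and 7.35 in WT on chow. Although the SHPKO arrays on western diet were the highest, the difference of 0.24 ± 0.13 from WT did not pass (adjusted p = 0.45), nor did 0.39 ± 0.13 against SHPKO on chow (adjusted p = 0.13). Ptprc, which encodes CD45, the tyrosine phosphatase on all nucleated blood cells, was detected by none of its 4 probes on any array. Its brightest probe read 4.51, 4.35 and 4.81 in SHPKO and 4.39, 4.37 and 4.37 in WT on western diet, and 4.36, 4.39 and 4.38 in SHPKO and 4.35, 4.35 and 4.41 in WT on chow. No fold is given for it, and a difference in CD45 transcript was not detectable with these probes.

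**Figure D2:**
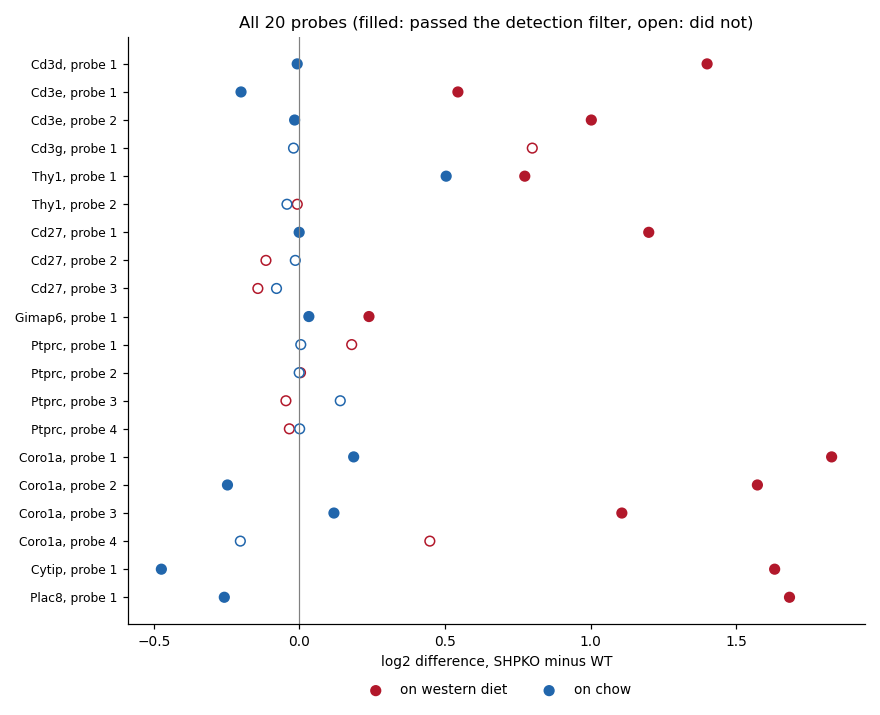
Log2 difference of SHPKO minus WT for each of the 20 probes, on western diet (red) and on chow (blue), with filled points for the 11 probes that passed the detection filter. Probes of Cd3d, Cd3e, Cd27, Coro1a, Cytip and Plac8 lie to the right on western diet, while the 4 Ptprc probes and the undetected Thy1 and Cd27 probes lie near 0.

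Of the 10 genes, 8 passed the filter, and Cd3d, Cd3e, Cd27 and Plac8 passed only through SHPKO islets on western diet, so those 4 had to lie higher there. Coro1a, Thy1 and Gimap6 were detected in every group, and Cytip on both sets of western diet arrays. On western diet, 6 of the 8 were higher in SHPKO than in WT and 0 lower, where 1.9% of all 8875 genes tested were higher and 1.16% lower. The median of the 8 was 1.30, and that of all tested genes was 0.02. In the fit without a filter the count was 7 of 10, with 0.876% of 19057 genes higher, and 9 of 10 genes had no overlap between the genotypes (9.29% of all genes).

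On chow, 0 of the 8 passed in either direction, against 0.845% higher and 1.21% lower among all genes tested, and the median was 0.00 for the 8 and 0.01 for all. The chow arrays showed Thy1 higher in SHPKO without overlap, as 9.78% of all genes tested were, and Cytip lower without overlap, as 7.35% were, neither past the threshold. An unadjusted p below 0.05 was reached on chow by 2 of the 8, Thy1 and Cytip, and by 13% of all genes tested.

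Within SHPKO islets, 6 of the 8 were higher on western diet than on chow (2.16% of all genes tested), namely Cd3d, Cd3e, Cd27, Coro1a, Cytip and Plac8. Within WT islets the 1 was Coro1a, by its brightest probe alone (1.23% of all genes tested). The genotype contrast on western diet and the diet contrast in SHPKO share the 3 SHPKO western diet arrays, so their calls are not separate evidence.

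The interaction is the genotype difference (SHPKO minus WT) under western diet less the one under chow, and it passed for 5 of the 8 (1.46% of all genes tested were positive by the same rule). It was 2.11 ± 0.19 for Cytip (adjusted p = 5.7e-05), 1.94 ± 0.25 for Plac8 (adjusted p = 8.2e-04) and 1.64 ± 0.14 for Coro1a (adjusted p = 2.5e-05). For Cd3d it was 1.41 ± 0.17 (adjusted p = 5.6e-04), and for Cd27 it was 1.20 ± 0.21 (adjusted p = 0.0077). Cd3d, Cd3e, Cd27 and Plac8 passed the filter only through SHPKO on western diet, so a positive value was favoured in advance. The interaction of Cd27 did not pass without background correction (0.47, adjusted p = 0.077). Cd3e gave 0.74 ± 0.22 by its brighter probe (adjusted p = 0.13), which passed without WT chow replicate 1 (0.95, adjusted p = 0.0070), and 1.02 ± 0.16 by its dimmer one (adjusted p = 0.0035). Gimap6 at 0.21 ± 0.19 did not pass (adjusted p = 0.78).

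**Figure D3:**
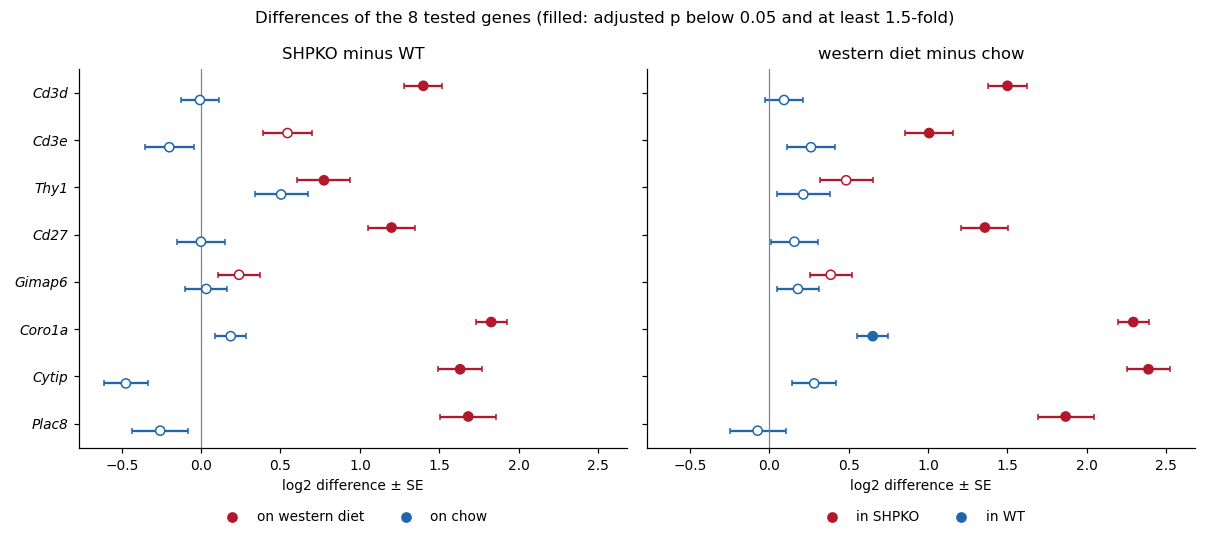
Log2 difference ± SE for the 8 genes tested, SHPKO minus WT on western diet and on chow (left) and western diet minus chow in SHPKO and in WT (right), with filled points past the threshold. Red points, for western diet on the left and SHPKO on the right, are filled for 6 of the 8 genes in each panel, and the only filled blue point is Coro1a in WT.

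The wider T cell list held 32 genes on the array, the 5 T cell genes above included. Per array, 11 to 14 of them were detected in SHPKO and 4 to 6 in WT on western diet, while on chow it was 4 in SHPKO and 5 to 6 in WT. Without the 5, it was 7 to 9 of 27 in SHPKO and 3 to 4 in WT on western diet, while on chow it was 3 in SHPKO and 4 to 5 in WT. The count was thus highest in SHPKO islets on western diet with and without the 5. Detected in that group and no other were 9 of the 32, among them Cd2, an adhesion receptor of T and NK cells, and Il7r, the interleukin 7 receptor chain. Of the 9, Cd3g and Lat were detected on 2 of that group's arrays, and Zap70 and Lef1 on 1. Ccr7 went the other way, detected on 2 WT arrays and 0 SHPKO arrays on each diet. Without a filter its difference, SHPKO minus WT, was -0.42 on western diet and -0.72 on chow, neither past the threshold. Icos was detected on 1 WT chow array alone. The share of all named genes detected only in SHPKO islets on western diet was not counted.

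Several receptors that define T cells and their branches were not detected. Cd4, Cd8a, the zeta chain gene Cd247, Cd5 and Cd28 were among 15 of the 32 genes detected on no array. Cd4 read 4.53, 4.67 and 4.62 in SHPKO and 4.53, 4.76 and 4.55 in WT on western diet. Cd8b1, Foxp3 and Skap1, with Thy1, were detected on all 12 arrays, and none of Cd8b1 (0.34 ± 0.09), Foxp3 (0.00 ± 0.12) and Skap1 (-0.08 ± 0.15) reached 1.5-fold between genotypes on western diet, though Cd8b1 had an adjusted p of 0.044. Foxp3, for example, read 8.82 ± 0.11 in SHPKO and 8.82 ± 0.21 in WT on western diet, while on chow it read 8.79 ± 0.06 in SHPKO and 8.72 ± 0.12 in WT (SD, n = 3), differences within the spread between arrays.

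On western diet 4 of the 9 tested T cell genes were higher in SHPKO than in WT and 0 lower, where 1.9% of all genes tested were higher. The list median was 0.61 beside 0.02 for all genes tested. Of the 9, 5 passed the filter only through SHPKO on western diet and so had to lie higher there. The 4 were Cd3d, Cd27, Thy1 and Cd2. Cd2 read 5.56, 5.57 and 5.82 in SHPKO and 4.38, 4.36 and 4.79 in WT on western diet, undetected in WT, and rose by 1.14 ± 0.12 (adjusted p = 5.5e-05, at least 1.26-fold), but by 0.51 without background correction, below the minimum fold. Il7r was higher by 0.61 ± 0.17, short of the threshold (adjusted p = 0.069). In the fit without a filter 8 of the 32 were higher, where 0.876% of all named genes were, and the median was 0.06, near the 0.00 of all genes. Cd3g and Cd6 were among the 8, as was Ctla4, whose probe was detected on no array. On chow 0 of the 9 passed, where 0.845% of all genes tested were higher and 1.21% lower.

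Genes that carry the signal of the T cell receptor gave 4 higher of 13 tested on western diet, with a median of 0.35, and 0 lower, beside 1.9% of all genes tested that were higher. They were Cd3d, Vav1, Ptpn22 and Rasgrp1, and 4 of the 13, Cd3d, Ptpn22 and Rasgrp1 among them, passed the filter only through SHPKO on western diet and so had to lie higher there. Without background correction 2 of the list were called. Vav1, a signalling adaptor of blood cells, gave 0.74 ± 0.18 (adjusted p = 0.036) and did not pass in the fit without a filter. Rasgrp1, the Ras activator downstream of the receptor, which B cells use as well, read 6.16, 6.37 and 6.11 in SHPKO and 4.52, 4.81 and 4.78 in WT on western diet. It rose by 1.51 ± 0.12 (adjusted p = 2.1e-06, at least 1.86-fold). Ptpn22, a phosphatase that restrains lymphocyte receptors, rose by 0.91 ± 0.13 (adjusted p = 8.2e-04, at least 1.18-fold), and did not reach the minimum fold without background correction (0.37). On chow 0 of the 13 passed, where 0.845% of all genes tested were higher and 1.21% lower.

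Gimap6 has family members beside it on chromosome 6, among them Gimap1, Gimap4, Gimap5, Gimap7, Gimap8 and Gimap9. Gimap7 rose in SHPKO on western diet by 1.40 ± 0.17 (adjusted p = 1.4e-04, at least 1.47-fold), reading 5.86, 6.10 and 5.65 in SHPKO and 4.41, 4.46 and 4.54 in WT. Gimap1, at 7.07 ± 0.07 in SHPKO and 6.47 ± 0.05 in WT (SD, n = 3), rose by 0.60 ± 0.14 (adjusted p = 0.026), and that call was lost on leaving out any 1 of the 6 western diet arrays (adjusted p of 0.056 to 0.10) and without background correction (0.38). Gimap8 gave 0.38 ± 0.11, short of the threshold (adjusted p = 0.071), and Gimap4, Gimap5 and Gimap9 were detected on no array. Of the 4 family members tested those 2 passed, with a median of 0.49, and Gimap7 passed the filter only through SHPKO on western diet (1.9% of all genes tested were higher).

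The list of pan-leukocyte genes, with Coro1a, Cytip and Plac8 in it, had 13 of 18 tested higher in SHPKO on western diet and 0 lower, with a median of 0.85. Without those 3 it was 10 of 15 with a median of 0.74, where 1.9% of all genes tested were higher. Of the 18, 6 passed the filter only through SHPKO on western diet and so had to lie higher there (5 of the 15). Among those called beside the members were Arhgdib at 1.51 ± 0.17 (adjusted p = 8.1e-05), Cd37, a tetraspanin of mature B cells and other leukocytes, at 1.39 ± 0.11 (adjusted p = 2.5e-06), and Ikzf1, a lymphoid transcription factor, at 1.13 ± 0.12 (adjusted p = 6.2e-05). Its arrays held 19 to 20 of 33 genes detected in SHPKO and 12 to 14 in WT on western diet, and 9 to 10 in SHPKO and 7 to 12 in WT on chow. On chow the 1 call among the 18 was lower, where 1.21% of all genes tested were lower and 0.845% higher. It was Cd52, a small glycoprotein of leukocytes, at 6.95 ± 0.41 in SHPKO and 7.79 ± 0.15 in WT (SD, n = 3), a difference of -0.85 ± 0.18 (adjusted p = 0.022). That call ended without WT chow replicate 1 (-0.79, adjusted p = 0.091) or 2 (-0.82, adjusted p = 0.077).

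**Figure D4:**
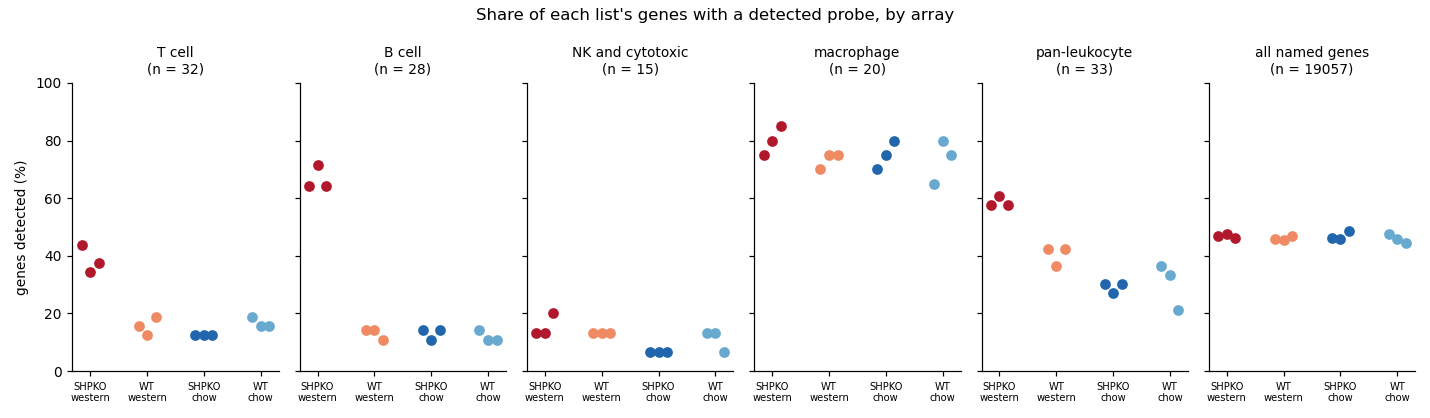
Percentage of the named genes of each list with a detected probe on each array, by group, beside the same for all 19057 named genes. T cell, B cell and pan-leukocyte genes were detected more often on the 3 arrays of SHPKO islets on western diet, while macrophage genes and all named genes were detected about as often in every group.

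Against these stood the B cell list. On western diet 16 of its 17 tested genes were higher in SHPKO than in WT and 0 lower, with a median of 1.46, where 1.9% of all genes tested were higher. Of the 17, 14 passed the filter only through SHPKO on western diet and so had to lie higher there. Cd79b, a signalling chain of the B cell receptor, was at 7.81 ± 0.14 in SHPKO and 4.61 ± 0.24 in WT (SD, n = 3), undetected in WT and at least 5.66-fold higher in SHPKO (3.21 ± 0.17 on the log2 scale, adjusted p = 4.3e-08). Per array 18 to 20 of 28 B cell genes were detected in SHPKO and 3 to 4 in WT on western diet, and 3 to 4 in both genotypes on chow. In the fit without a filter 16 of 28 B cell genes and 8 of 32 T cell genes were higher, where 0.876% of all named genes were. Whether the shares of the 2 lists differ was not tested. The summed signal of the B cell list was 1922 to 1949 in SHPKO and 627 to 652 in WT on western diet, and 537 to 599 in SHPKO and 533 to 548 in WT on chow. The 10 genes of this account summed to 1258 to 1329 in SHPKO and 460 to 468 in WT on western diet, and 315 to 416 in SHPKO and 335 to 363 in WT on chow. Coro1a, at 9.26 in SHPKO on western diet, was the brightest of the 10. The wider T cell list, with Cd8b1 its brightest gene, summed to 4698 to 4829 in SHPKO and 3773 to 3957 in WT on western diet. On chow it was 3991 to 4202 in SHPKO and 3661 to 3929 in WT. Cd8b1 alone made up most of this sum in every group. It read 11.72 in SHPKO and 11.39 in WT on western diet, short of 1.5-fold. The T cell list sum is therefore not read as an amount of T cells. Each of these sums was highest in SHPKO islets on western diet, and the part of B cells in the rise of the shared genes was not tested.

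Markers of other cell types that could carry the shared genes were counted in the same way. Of all genes tested, 1.9% were higher in SHPKO over WT on western diet. Of 15 NK and cytotoxic genes, 12 were detected on no array, the receptor genes Ncr1 and Klrb1c and the granzyme gene Gzmb among them. Il2rb was detected on 1 array of SHPKO islets on western diet. Prf1, the perforin gene, was detected on all 12 arrays and differed between genotypes on western diet by 0.11 ± 0.40 (adjusted p = 0.94). Of the 2 tested, Prf1 and Ccl5, the 1 called was Ccl5, a chemokine of activated T and NK cells, at 7.24 ± 0.21 in SHPKO and 6.39 ± 0.13 in WT on western diet, while on chow it was at 4.73 ± 0.10 in SHPKO and 5.26 ± 0.36 in WT (SD, n = 3). It rose in SHPKO over WT on western diet by 0.85 ± 0.16 (adjusted p = 0.0081), and over chow by 2.51 ± 0.16 in SHPKO (adjusted p = 7.9e-07, at least 4.06-fold) and by 1.13 ± 0.16 in WT (adjusted p = 0.0018). Without background correction the genotype difference of Ccl5 (0.55) and the diet difference in WT (0.53) fell short of the minimum fold. Of 16 tested macrophage genes 1 was higher in SHPKO over WT on western diet, the galectin gene Lgals3 by 0.97 ± 0.10 (adjusted p = 4.6e-05). The list median was 0.05. Summed signals were 2277 to 2409 in SHPKO and 2108 to 2391 in WT on western diet, and 1663 to 1813 in SHPKO and 2056 to 2093 in WT on chow. Within SHPKO, 2 of the 16, Lgals3 and Tyrobp, were higher on western diet than on chow and 0 lower (2.16% of all genes tested were higher). The list median of that diet difference was 0.44, beside 0.02 for all genes tested. Of 11 neutrophil genes 0 passed the filter. Of 6 plasma cell genes the 1 tested was Mzb1, which B cells also make, at 7.83 ± 0.04 in SHPKO and 5.77 ± 0.25 in WT on western diet (SD, n = 3). It rose by 2.06 ± 0.13 in SHPKO over WT on western diet (adjusted p = 2.0e-07) and by 2.39 ± 0.13 in SHPKO on western diet over chow (adjusted p = 1.4e-07). The other 5, Jchain, Sdc1, Tnfrsf17, Prdm1 and Irf4, were detected on no array. The part of plasma cells in the leukocyte values was not tested.

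The lymphoid chemokine gene Cxcl13 and Pdpn, a mucin-like protein of lymph node stroma and other cells, were higher in SHPKO on both diets. They were 2 of 3 tested genes of a lymph node stroma and chemokine list, and the third, Lyve1, was called on neither diet. Of all genes tested, 1.9% were higher on western diet and 0.845% on chow. Glycam1 and Madcam1 of that list were detected on no array. Cxcl13 passed the filter only through SHPKO on western diet and so had to lie higher there. Pdpn passed it only through the SHPKO groups of both diets, with 0 WT arrays detected, and so had to lie higher in SHPKO on each diet. Cxcl13 was at least 2.82-fold higher in SHPKO over WT on western diet (2.12 ± 0.17, adjusted p = 2.5e-06) and at least 1.21-fold on chow (0.95 ± 0.17, adjusted p = 0.0062). Pdpn was at least 1.42-fold higher on western diet (adjusted p = 0.0028) and at least 1.44-fold on chow (adjusted p = 7.3e-04). Without background correction Pdpn on both diets (0.42 on western diet and 0.53 on chow) and Cxcl13 on chow (0.40) fell short of the minimum fold. On chow those 2 were called while 0 of the 8 tested T cell and leukocyte genes were.

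**Figure D5:**
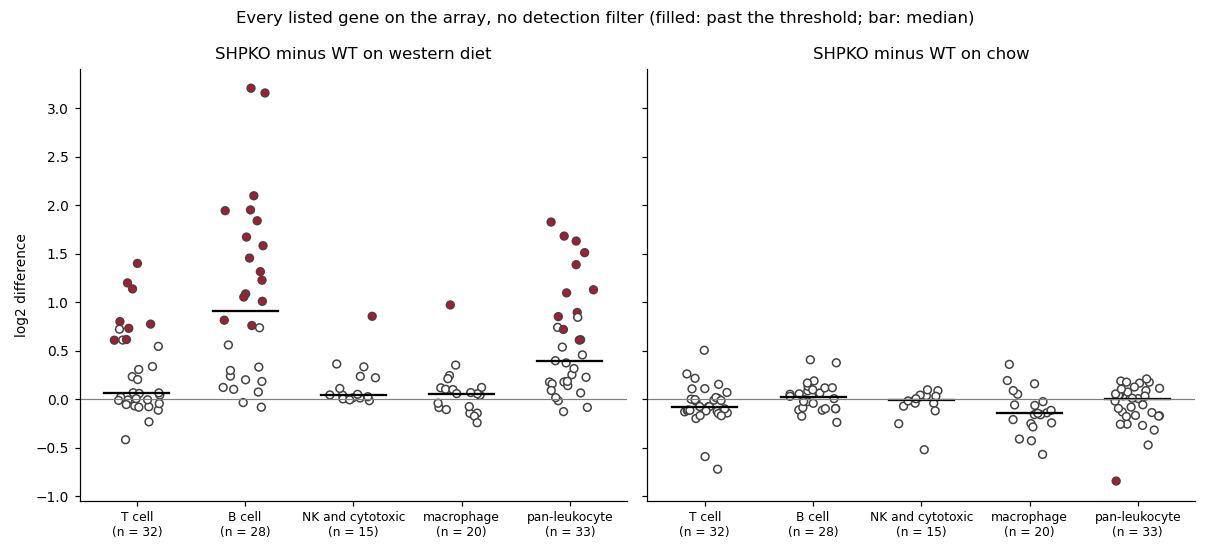
Log2 difference of SHPKO minus WT on western diet (left) and on chow (right) for every gene of 5 lists on the array, from the fit without a detection filter, with filled points past the threshold and a bar at each list's median. On western diet 16 of 28 B cell, 12 of 33 pan-leukocyte and 8 of 32 T cell genes are filled against 1 of 15 NK and 1 of 20 macrophage genes, and on chow 1 gene, Cd52, is filled. Of all named genes, 0.876% were higher on western diet.

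The genes most like each called member were found by the smallest root mean square difference of gene-centred log2 levels over the 12 arrays, among all tested genes outside the list of 10. Cd3d was nearest to Arhgap30 (0.11), Tbc1d10c (0.13) and Ikzf1 (0.14). Cd27 was nearest to Fcrla (0.12), a B cell gene, Itgb7 (0.14), a homing integrin chain, and Cd37 (0.14). Cd3e was nearest to Laptm5 (0.13), a lysosomal protein of blood cells, then to Prcp (0.18) and Hsph1 (0.18). Coro1a was nearest to Stk17b (0.14), and its next were Mzb1 (0.16), a gene of marginal zone B cells and plasma cells, and Napsa (0.18). Plac8 was nearest to the B cell kinase gene Blk (0.21), Ly6d (0.24) and Gpr18 (0.24), and Cytip to Arhgdib (0.22), Prr33 (0.23) and Napsa (0.27). Thy1 had no blood cell gene among its 3 nearest, which were Igfbp4 (0.17), Ahnak (0.17) and Cish (0.18). Arrays of a group may share a pool, so these are descriptions of the pattern and not of shared control.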

How the data were processed

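For each of the 12 arrays the authors deposited an unnormalized linear intensity of every probe, and a detection p-value that sets this signal against the array's negative controls. A second deposited table of normalized intensity served as an alternative. Per the submitters' processing notes BeadStudio made both, its version not given in the sources used here, and slides are not given either. Genes were named through the platform annotation, and 34885 probes carried 1 name. Raw intensities were background-corrected from the detection p-values (offset 16), quantile-normalized and taken to log2 with neqc in limma 3.58.1 (R 4.3.3). Probes detected at p below 0.01 on all 3 arrays of a group were kept (14756), variances were moderated over these, and the brightest kept probe stood for each of 8875 genes. A model of 4 group means was fitted over 12 arrays, with Benjamini-Hochberg adjustment over all genes tested. Bounds of the form "at least N-fold" come from the mean log2 level of the brighter group less that of the dimmer one, after any signal of the dimmer one below the array's dimmest detected probe is lifted to that probe's. The fit was tested on simulated data.

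The 10 genes and the 16 lists were chosen with earlier results of these data known. Named genes are all 10, up to 3 called genes per list and direction on western diet and 2 in other contrasts, and the 3 nearest in pattern to each called gene. Cd4, Cd5, Cd6, Cd8a, Cd8b1, Cd28, Cd247, Ccr7, Ctla4, Foxp3, Icos, Il7r, Lat, Lef1, Skap1, Vav1, Zap70, Gimap8, Prf1, Il2rb, Lyve1, Glycam1, Madcam1 and the undetected fibroblast and plasma cell genes were singled out after their values were seen. Plasma cell, mast cell, endothelial, fibroblast and erythroid lists were counted too. Among all genes tested, 1.9% were higher and 1.16% lower in SHPKO over WT on western diet. On western diet, SHPKO over WT, 1 of 1 plasma cell, 0 of 2 mast cell, 0 of 11 endothelial, 1 of 5 fibroblast and 2 of 4 erythroid genes tested were higher and 0 lower (fibroblast 2 without WT western diet replicate 1; erythroid 0 with median scaling, without a filter or without WT replicate 2 or 3 or SHPKO replicate 1 or 2 on western diet, and 1 without WT chow replicate 2 or SHPKO chow replicate 1), while 13 of 13 acinar genes were lower and 0 of 11 islet genes passed.

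Same-numbered SHPKO and WT arrays on western diet deviated together, with correlations of 0.42, 0.15 and 0.41 over the 8875 genes, all above 0.1, a pairing seen in the data and not stated by the labels. In the other comparisons at least 1 same-numbered pair lay at or below 0.1. Alternatives were no background correction, the authors' normalized table, median scaling, other filters, adjustment over probes, no minimum fold, the replicate number as a block and each array left out. The block restricted to the 6 western diet arrays was added after the data were seen.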

Additional observations from a re-analysis of the deposited data

Results flagged for a closer look

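Effects of genotype that differed between the diets, by the interaction term of limma with Benjamini-Hochberg adjustment over all genes tested, are given as the genotype difference (SHPKO minus WT) under western diet less the one under chow. Among the 10 genes these were Cytip at 2.11 (adjusted p = 5.7e-05), Plac8 at 1.94 (adjusted p = 8.2e-04), Coro1a at 1.64 (adjusted p = 2.5e-05), Cd3d at 1.41 (adjusted p = 5.6e-04) and Cd27 at 1.20 (adjusted p = 0.0077). In each, the 3 SHPKO arrays on western diet lay above all 9 other arrays. Cd3d, Cd27 and Plac8 passed the filter only through that group and so had to lie higher there. The genotype difference of Cytip was 1.63 on western diet and -0.47 on chow, and the chow value alone did not pass.

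Among T cell and receptor signalling genes outside the 10, Cd2 gave 1.26 (adjusted p = 0.0012), Rasgrp1 1.67 (adjusted p = 9.4e-05) and Ptpn22 0.80 (adjusted p = 0.045). Gimap7 gave 1.20 (adjusted p = 0.017) and did not pass when WT chow replicate 2 (adjusted p = 0.0503) or SHPKO chow replicate 1 (adjusted p = 0.053) was left out, or without background correction (0.52, adjusted p = 0.059). The B cell genes Cd79b at 3.12 (adjusted p = 1.5e-05), Fcmr at 3.27 (adjusted p = 4.8e-07) and Ccr6 at 2.20 (adjusted p = 6.4e-06) also passed. Every gene of this paragraph passed the filter only through SHPKO on western diet and so had to lie higher there.

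Cd52 gave 1.74 (adjusted p = 0.0020), with SHPKO minus WT at 0.89 on western diet and at -0.85 on chow. Ccl5 gave 1.38 (adjusted p = 0.0061), at 0.85 on western diet and at -0.52 on chow, where it did not pass. Groups of 3 arrays were not tested for outlying arrays.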

How the results depend on the processing

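The western diet genotype calls of Cd3d, Coro1a, Cytip and Plac8 held in all 21 alternatives run, Cd27 in 20 and Thy1 in 16. The lowest value of Cd3d among them was 0.61, just past the minimum fold, against 1.40. Without background correction, 126 genes were called between genotypes on western diet (51.6% higher, against 62.1%), 97 on chow, 127 between diets in SHPKO and 85 in WT. The T cell receptor signalling list then had 2 calls between genotypes on western diet and 2 between diets in SHPKO, against 4 and 5. The T cell list then had 1 call between genotypes on western diet and 2 between diets in SHPKO, the pan-leukocyte list 6 and 9, and the B cell list 10 between genotypes. Of the 8 genes, 4 were called between genotypes on western diet and 4 between diets in SHPKO. In WT between diets, 0 of the 8 genes and 0 pan-leukocyte genes were then called. That setting turned the chow values of Cd3d to 0.0023 and of Cd27 to 0.033. Without a filter the T cell list had 8 calls between genotypes on western diet and 7 between diets in SHPKO, and 7 with detection p below 0.05, since more genes were then tested. With no minimum fold, 457 genes passed between diets in SHPKO and 440 in WT. Leaving out 1 array at a time gave 0 to 1 of the 8 genes and 0 to 1 pan-leukocyte genes called between diets in WT, and 0 to 1 pan-leukocyte genes between genotypes on chow. On leaving out 1 array at a time, the chow genotype values, none called, ranged from -0.15 to 0.17 for Cd27, -0.077 to 0.042 for Cd3d and -0.086 to 0.19 for Gimap6, and the WT diet value of Plac8 from -0.26 to 0.036, and over all 20 alternatives the lowest were -0.21 for both Cd27 and Cd3d. With the replicate block, 288 genes and 6 of the 8 were called between genotypes on western diet, and with the block on the 6 western diet arrays 301 and 6. The block changed no call of the 8 genes in any contrast. In 9 of the 12 same-numbered pairs of 4 comparisons, the arrays correlated best with their own number. The cause of these shifts was not tested. With 3 arrays per group, small changes in dim probes could not be resolved.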
